A study of Mus musculus with 2 samples.

Results

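The genes described here are 35 coagulation and fibrinolysis factors, their receptors, cofactors and modifying enzymes, taken from a fixed list of gene symbols without the serpins. Of these, 33 were matched to 45 of the 45101 probe sets of the array through the platform annotation. Kng2 and Cpb2 were matched to none and are not analysed here. A gene with several probe sets is represented by the one with the highest mean level. It was counted when that probe set was at or above the array median on at least 1 array, which was 225.7 for sham and 231.8 for AKI. This filter was passed by 29 members of the 33, and by 13128 of 18193 named genes on the array.

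The study compared livers after kidney injury with livers after a sham operation. All mice were female C57BL/6 wild-type (wt) animals, 8 weeks old, with no allele or agent added. The AKI group (acute kidney injury) had 30 min of warm ischemia of both kidneys with reperfusion, the sham group had surgery alone, and livers were taken 24 h later. In each group 100 mg of frozen liver from 3 mice was pooled and hybridized to 1 array, so neither group has a replicate and no p-value can be given. "Higher" and "lower" below compare these 2 pools, and the spread between mice is unknown. Differences are log2 values, AKI minus sham, of the signal plus 71.8, which understates the differences of weak genes, and folds are ratios of the signals themselves. Different probe sets of the same gene are the only repeat measurement. Their differences had an SD within genes of 0.63 in the highest of 4 level classes and of 0.82 in the lowest. A gene was classed by its strongest probe set, so its weaker probe sets enter the SD too.

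Blood clotting is a chain of serine protease zymogens that hepatocytes secrete and that activate one another on membranes, with factors V and VIII as cofactors. Several of the zymogens become functional only after vitamin K-dependent carboxylation of their glutamate residues. Thrombin, the last protease, converts fibrinogen to fibrin, and plasmin, made from plasminogen, dissolves it. Endothelial thrombomodulin and the protein C pathway hold the chain in check. Fibrinogen is a classical acute phase protein, made in larger amounts by the liver when interleukin-6 acts on it.

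The members did not move in one direction. The 3 fibrinogen chains were higher in the AKI pool, most hepatocyte-made proteases and cofactors were lower, and receptors and regulators made mainly by other cells held the largest positive differences. At least 2-fold lower were 4 of the 29 members (13.8%, against 12.4% of all genes past the filter), namely Klkb1, Proz, F11 and Vkorc1. At least 2-fold higher were 4 members as well (13.8%, against 10.4% of all genes), namely Thbd, Plaur, Fgl2 and Plat. Both shares were near the background, as was the share of members below 0, 16 of 29 or 55.2%, against 51.1% of all genes. The median over the 29 was -0.15, against -0.02 over all genes. These counts do not set the members apart from all genes. The genes are described singly below, and whether their places differ from the background was not tested. The arrays' scaling sets the background. Higher genes made up 45.6% of all genes past 2-fold with the authors' scaling, 67.5% after centring on 18 hybridization controls and 31.1% after centring on 10 reference genes.

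**Figure D1:**
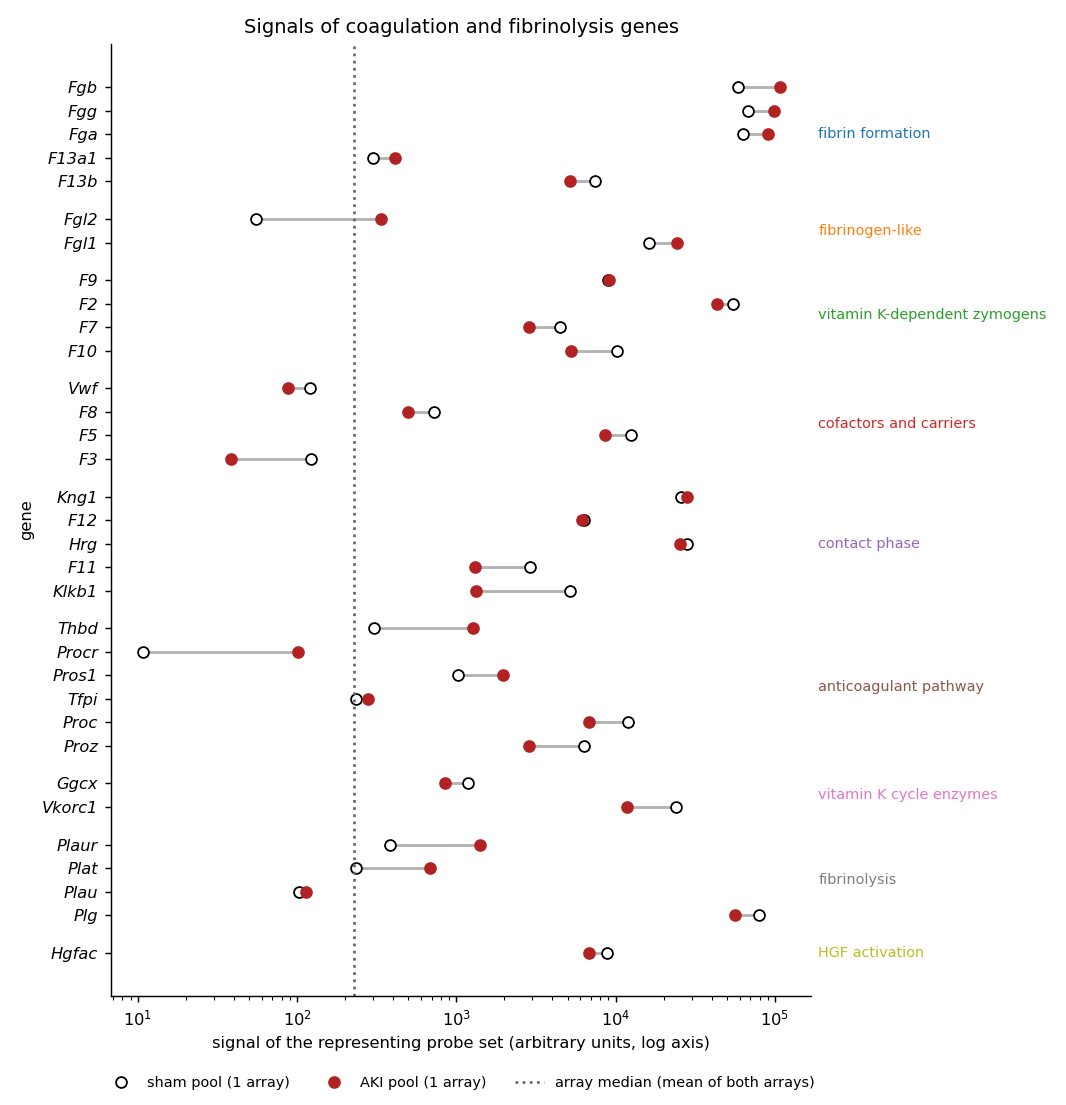
Signals of the 33 matched members after sham surgery (open circles) and after AKI (red circles), on a log axis in arbitrary units and grouped by role, with 1 pool of 3 mice per group. The 3 fibrinogen chains lie at the right with the red circle to the right of the open one, while Klkb1, F11, Proz and Vkorc1 have it to the left.

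Fibrinogen, the soluble precursor of the clot, is assembled from 3 chains, each with its own gene, and all 3 were higher in the AKI pool. Fga, the alpha chain, had signals of 62882.1 (sham) and 90819.4 (AKI), a ratio of 1.44 and a difference of 0.53. Fgb, the beta chain, went from 58222.6 to 106882.4, a ratio of 1.84 and the largest difference of the 3 (0.88). Fgg, the gamma chain, went from 67294.7 to 98619.6, a ratio of 1.47 (0.55). None of the 3 reached 2-fold, and each rests on 1 probe set. The probe set SD of 0.63 is larger than the differences of Fga and Fgg and smaller than that of Fgb. Because this SD takes in weaker probe sets of strong genes, it does not measure the noise at these signals. The 3 genes were measured in the same pools and are not replicates of one another. Their signals stood at the top of the range of the array, where the highest signal of all was 127786.6 for sham and 106903.1 for AKI. Whether signals in this range were compressed was not tested. With the authors' scaling, genes measured at a mean level at or above that of the lowest chain went the other way. Of 10 such genes, 0 were above 0, with a median of -0.30 and a range of -0.54 to -0.01. Centring on the hybridization controls shifted every gene alike and moved the median of all genes from -0.02 to 0.28. The side of 0 on which these 10 genes lay thus depends on the scaling.

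The promoters of these chains are shown because the 3 genes lie side by side, were higher together, and belong to a gene family known for a short interleukin-6 response element, CTGGGA. The windows are the 250 bases before the RefSeq transcription start in GRCm38.p6. They are chr3:83025903-83026152 on the plus strand, chr3:83049864-83050113 on the minus strand and chr3:83007474-83007723 on the plus strand. Capitals mark CTGGGA on either strand of the window. For comparison the same window is given for Klkb1 (chr8:45294836-45295085, minus strand) and F11 (chr8:45262032-45262281, minus strand), neighbouring genes that were both lower.
Fga: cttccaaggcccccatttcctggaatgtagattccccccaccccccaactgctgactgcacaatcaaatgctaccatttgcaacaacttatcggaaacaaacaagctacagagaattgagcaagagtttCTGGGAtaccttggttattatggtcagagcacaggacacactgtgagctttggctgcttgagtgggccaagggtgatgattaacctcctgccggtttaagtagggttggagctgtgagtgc
Fgb: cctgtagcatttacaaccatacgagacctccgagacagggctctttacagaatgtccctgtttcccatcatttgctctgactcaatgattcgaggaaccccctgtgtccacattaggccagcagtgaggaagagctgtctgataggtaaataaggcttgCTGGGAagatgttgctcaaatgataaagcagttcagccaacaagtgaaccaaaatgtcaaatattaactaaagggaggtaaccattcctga
Fgg: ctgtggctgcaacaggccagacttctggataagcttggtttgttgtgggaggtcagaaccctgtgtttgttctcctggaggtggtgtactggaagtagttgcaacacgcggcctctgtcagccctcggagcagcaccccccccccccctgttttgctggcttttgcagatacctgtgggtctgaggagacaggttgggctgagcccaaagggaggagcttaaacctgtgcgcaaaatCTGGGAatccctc
Klkb1: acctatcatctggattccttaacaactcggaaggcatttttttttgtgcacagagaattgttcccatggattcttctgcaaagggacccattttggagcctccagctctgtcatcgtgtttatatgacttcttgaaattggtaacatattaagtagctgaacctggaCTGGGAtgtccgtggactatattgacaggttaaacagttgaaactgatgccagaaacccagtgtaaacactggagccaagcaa
F11: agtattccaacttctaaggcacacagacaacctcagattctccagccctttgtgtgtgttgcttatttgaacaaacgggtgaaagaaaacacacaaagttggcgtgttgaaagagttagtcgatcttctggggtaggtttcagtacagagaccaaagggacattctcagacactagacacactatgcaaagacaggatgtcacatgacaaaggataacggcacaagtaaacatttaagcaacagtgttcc
Counted from the base before the start as -1, the motif began at -121 in Fga, at -91 in Fgb and at -13 in Fgg, each time on the strand of the gene. The Klkb1 window held it once too, at -83, and the F11 window did not hold it. CTGGGA is common. On either strand it was found in 27.0% of 32851 promoter windows of the same length, and a match is not a binding site.

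Among the members with a promoter window, matches to CTGGGA were more frequent in genes with a positive difference. A promoter window was at hand for 27 members, of which 12 held the motif (44.4%), Procr below the level filter among them. Of 9 members past the level filter with a difference above 0, 8 held it (F9, F13a1, Fga, Fgb, Fgg, Fgl2, Pros1 and Tfpi) and Plaur did not. The other 4 of the 13 members above 0, Thbd, Plat, Fgl1 and Kng1, had no window to search, nor had Proc and Plg among those below 0. Of 14 with a difference below 0, 3 held it (F10, Klkb1 and Hgfac). Over all genes past the filter, counting any window of a gene, the shares were alike, 31.7% of 5160 genes above 0 and 33.1% of 5377 below 0. The motif and the members were both picked with values known, and F9 and Tfpi stood near 0 and changed sign under other processing. Among members past 2-fold with a window, CTGGGA was in 1 of 2 higher (Fgl2) and in 1 of 4 lower (Klkb1). No test was made. TTCNNNGAA, a palindrome that STAT factors bind and that can overlap CTGGGA, was found in 7.02% of all windows and in those of 6 members (22.2%). Of these, F9, Fga, Fgb, Fgl2 and Pros1 were above 0 and Hgfac was below 0. GTTAAT, which is part of the site of the hepatocyte factor HNF1, was found in 6.43% of all windows and in 5 members (18.5%). They were F13b, Fga, Fgb, Proz and Hgfac. TTGCNNAA, which C/EBP factors can bind, was in 9.56% of all windows and in 10 members (37.0%). Of these, 4 were above 0, 4 below 0 and 2 not counted. The last 3 motifs were searched on both strands in the same windows. A member was counted when any of its windows held the motif, unlike the shares of all windows. By gene, over all genes past the filter, 7.27% above 0 and 7.09% below 0 held TTCNNNGAA. The shares were 5.27% and 5.71% for GTTAAT and 9.22% and 9.73% for TTGCNNAA.

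The factor that cross-links fibrin, factor XIII, has an A subunit made mainly by macrophages and megakaryocytes and a B subunit made by hepatocytes. F13a1 was weak, with signals of 297.5 and 409.5 in the sham and AKI pools (0.38). F13b had signals of 7384.2 and 5166.0 (-0.51). The subunits thus stood on opposite sides of 0, each by less than 2-fold. The fibrinogen-like genes were both higher. Fgl1, which encodes a hepatocyte-secreted protein that acts on hepatocytes and binds the T cell receptor LAG-3, had signals of 16267.4 and 24294.0, a ratio of 1.49 (0.58), close to those of Fga and Fgg. Fgl2, a prothrombin-cleaving membrane protein of macrophages and endothelium, had signals of 55.5 and 334.0 (1.67), and its other probe set went from 44.0 to 201.8 (1.24). Fgl2 passed the level filter only through the AKI array, so it could have been counted only as higher.

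The vitamin K-dependent proteins were mostly lower in the AKI pool. Prothrombin (F2), the zymogen of thrombin, had signals of 54558.4 after sham and 43060.8 after AKI (-0.34). F7, which starts coagulation together with tissue factor, had signals of 4441.4 and 2868.8 (-0.62). F10, whose active form cleaves prothrombin, went from 10157.3 to 5223.5 (-0.95), just short of 2-fold. The weaker probe sets of F10 did not show this, at 595.9 and 510.4 (-0.20) and at 1178.7 and 1246.8 (0.08). F9, the factor lacking in haemophilia B, was level, with signals of 8928.5 and 9107.9 (0.03).

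The other carboxylated proteins act against clotting. Proc, the zymogen of activated protein C, which inactivates factors V and VIII, had signals of 11961.9 and 6758.2 (-0.82). Proz, or protein Z, helps a serpin to inhibit factor Xa, and its probe sets were at 6318.0 and 2844.5 (-1.13) and at 2656.8 and 1357.0 (-0.93). Pros1, or protein S, the cofactor of activated protein C, went the other way, from 1017.6 to 1958.8 (0.90). Over these 7 carboxylated proteins, 5 were below 0 (71.4%, against 51.1% of all genes) and the median was -0.62. This grouping was made after the values were seen.

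The vitamin K cycle enzymes, on which the carboxylation depends, were lower too. Vkorc1, the vitamin K epoxide reductase that warfarin inhibits, had signals of 23875.2 and 11740.7, a ratio of 2.03 sham over AKI (-1.02). Ggcx, the gamma-carboxylase, had probe sets at 1187.0 and 842.7 (-0.46) and at 543.3 and 351.9 (-0.54). Vkorc1 stood at the edge of the 2-fold threshold, and once the arrays were centred on the hybridization controls, F11 (-0.79), Proz (-0.83) and Vkorc1 (-0.72) all fell short of it.

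**Figure D2:**
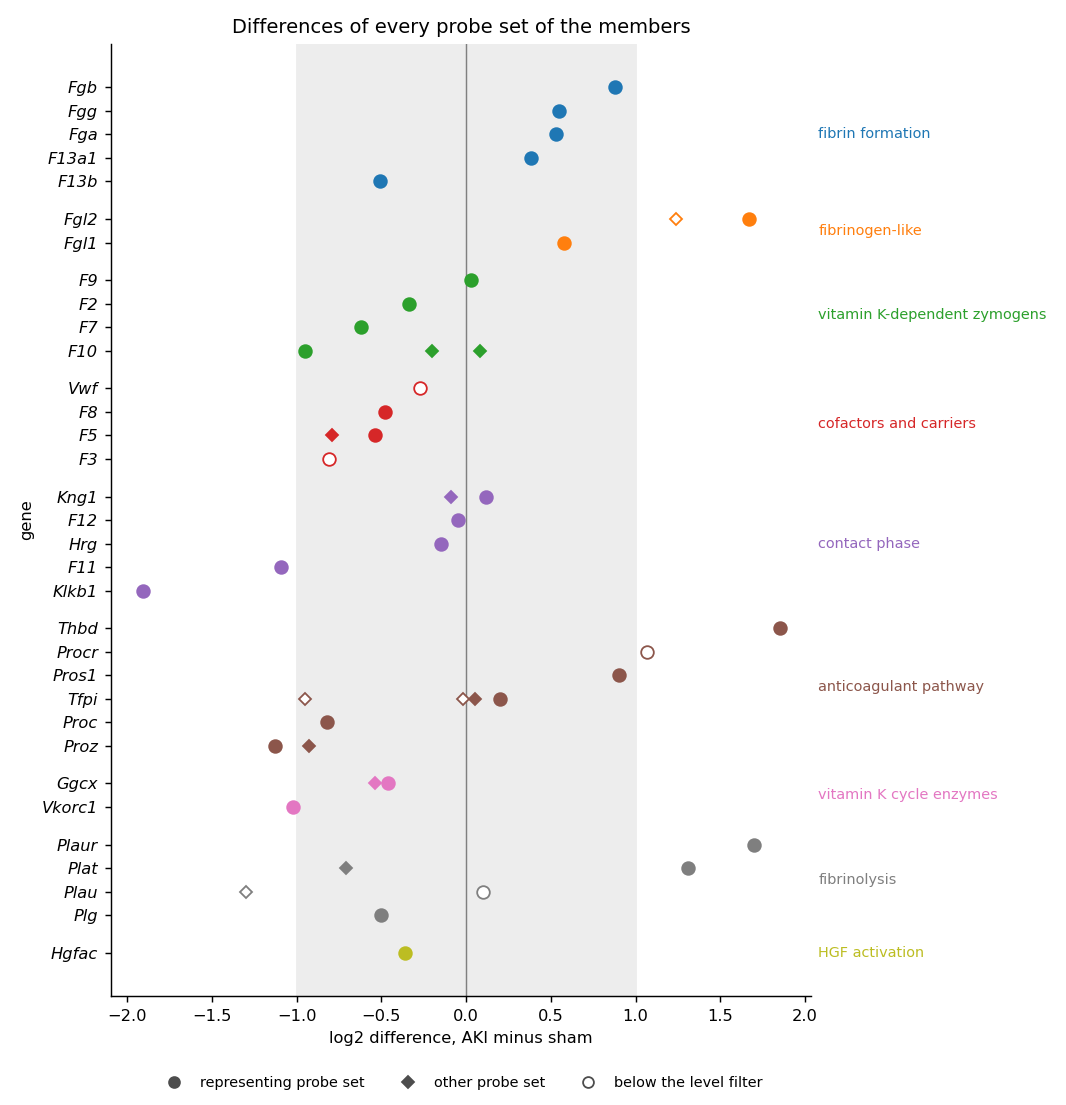
Differences (log2, AKI minus sham) of all 45 member probe sets, with circles for the probe set that represents its gene, diamonds for the others and open symbols below the level filter. The grey band is less than 2-fold, and F10, Kng1, Tfpi, Plat and Plau have probe sets on both sides of 0.

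The contact phase held the lowest member. In this phase factor XII and plasma prekallikrein activate each other with kininogen as a carrier, which leads to active factor XI and to release of bradykinin. Klkb1, which encodes prekallikrein, had signals of 5202.4 after sham and 1328.8 after AKI, a ratio of 3.92 sham over AKI. Its difference of -1.91 was at percentile 2.80 of all genes past the filter. F11 went from 2882.5 to 1315.4, a ratio of 2.19 (-1.09). Their partners did not follow. F12 had signals of 6332.1 and 6125.4 (-0.05). The probe sets of Kng1, or kininogen, were at 25850.8 and 28125.1 (0.12) and at 15186.2 and 14262.7 (-0.09). Kng1 has a near-identical paralog in the mouse, Kng2, and the array values do not say which of them was measured. Hrg, a plasma glycoprotein that binds heparin and plasminogen and is related to the kininogens, had signals of 27976.4 and 25179.4 (-0.15). The contact phase was therefore split between a lower pair of protease genes and 3 genes within 0.15 of 0. Klkb1 and F11 arose by duplication of a common ancestor, and each was read by 1 probe set.

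Of the cofactors, F5 had probe sets at 12550.6 and 8617.1 (-0.54) and at 8407.4 and 4835.9 (-0.79). F8, the factor lacking in haemophilia A and made mainly by sinusoidal endothelium, had signals of 718.6 and 494.7 (-0.48). Both factors leave the endoplasmic reticulum through a cargo receptor made of Lman1 and Mcfd2, and these genes were named after their values were seen. Mcfd2 had signals of 14073.7 and 7131.6 (-0.97). Lman1 had signals of 7160.4 and 4799.6 (-0.57), though its probe sets spanned -0.77 to 0.27. F3, or tissue factor, which starts coagulation on cells outside the vessel, was below the level filter, with signals of 122.4 and 38.6. So was Vwf, the endothelial carrier of factor VIII, at 120.2 and 87.2. Neither of these weak genes was counted.

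Of the regulators on cell surfaces, Thbd stood out and the others were weak. Thbd, or thrombomodulin, the receptor that turns thrombin into an activator of protein C, had signals of 302.5 after sham and 1275.9 after AKI. This was a ratio of 4.22 and, at 1.85, the largest difference of the members past the filter. Procr, the endothelial receptor of protein C, had signals of 10.7 and 100.9 and did not pass the filter. Tfpi, the inhibitor of the tissue factor complex, was weak in all 4 of its probe sets. They ranged in signal from 164.3 to 241.0 (sham) and from 50.7 to 276.9 (AKI), and in difference from -0.95 to 0.20. Along the protein C pathway the receptor gene Thbd was thus higher, the zymogen gene Proc lower and the cofactor gene Pros1 higher.

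In fibrinolysis the zymogen and the receptor stood on opposite sides of 0. Plg, or plasminogen, had signals of 79684.1 and 56269.6 (-0.50). Plaur, the receptor that holds urokinase at the cell surface, went from 384.5 to 1406.5, a ratio of 3.66 (1.70). Plat, the tissue plasminogen activator, gave conflicting values. The probe set with the higher mean went from 233.0 to 684.1 (1.31) and the other from 330.3 to 174.6 (-0.71), so that their mean was 0.30. Plau, or urokinase, did not pass the filter, with signals of 102.0 and 114.4 in one probe set and 192.7 and 35.3 in the other. Hgfac, a hepatocyte protease related to factor XII that activates hepatocyte growth factor, had signals of 8778.6 and 6815.3 (-0.36).

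Grouped by the cells that mainly make them, the members had overlapping ranges with different medians. Of 22 hepatocyte-made members 20 were measured, and all 20 passed the filter. Of these, 13 were below 0 (65.0%, against 51.1% of all genes), and the median was -0.35. It was -0.50 over 17 genes without the fibrinogen chains, a set made with the values known. Among the 20, 3 were at least 2-fold lower (15.0%, near the 12.4% of all genes) and 0 at least 2-fold higher (10.4% of all genes). The range ran from -1.91 for Klkb1 to 0.90 for Pros1, which endothelium makes as well. Of 11 members made mainly by other cells 7 passed the filter, with 4 at least 2-fold higher (57.1%, against 10.4% of all genes) and 0 lower (12.4% of all genes). Of the 7, 1 was below 0, namely F8 (14.3%, against 51.1% of all genes). F8, Tfpi and F13a1 lay inside the range of the hepatocyte-made members. The median of these 7 was 1.31, a value that rests on the filter, on Fgl2 and on Plat. Fgl2 passed only through the AKI array, and with the filter required on both arrays 3 higher members were left and the median was 0.85. With no level filter, or with a mean over the probe sets of each gene, it was 0.38. In bulk liver, fewer cells of a type and less RNA per cell cannot be told apart.

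**Figure D3:**
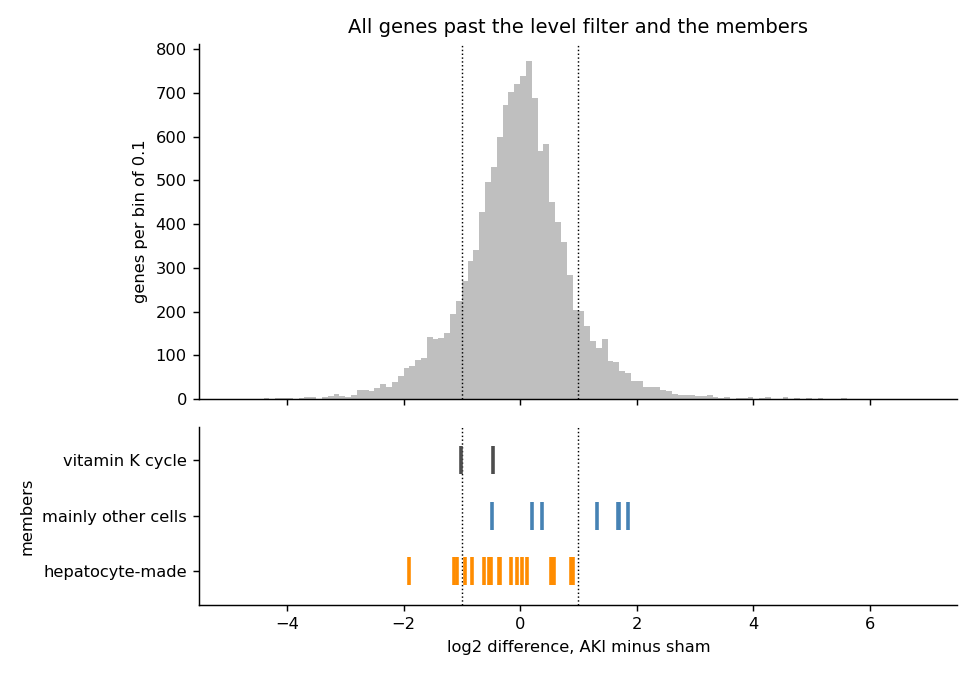
The upper panel is a histogram of the differences (log2, AKI minus sham) of all 13128 genes past the level filter, and the lower panel marks the 29 members by the cells that mainly make them, with dotted lines at 2-fold. The hepatocyte-made members reach from -1.91 to 0.90, and the 4 marks furthest right, from 1.31 to 1.85, are members made mainly by other cells.

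Cell type markers stood as follows beside these groups, where 51.1% of all genes past the filter were below 0. The hepatocyte markers, which were strong in both pools, had 6 of 7 genes below 0 with a median of -0.34, near the -0.35 of the hepatocyte-made members. Their summed signals were 643976.5 (sham) and 511556.5 (AKI), and Ahsg (-0.68) and Apoa1 (-0.54) were the lowest. Of the 11 endothelial markers 8 were below 0, with a median of -0.59 and summed signals of 12660.9 and 8459.1. Clec4g (-2.08), Oit3 (-1.86) and Stab1 (-1.55) were lower, and Lyve1 was higher (1.79). The endothelial list was thus mostly lower where Thbd was higher, but not throughout. As exceptions to the naming rule, Cdh5 (0.52) and Pecam1 (0.18) were above 0, and Ptprb (-0.06) was level. The probe sets of Eng disagreed (-1.25 and 0.73). Of the 9 macrophage markers 7 were below 0, with a median of -0.57, summed signals of 14680.2 and 9058.1 and Clec4f (-1.37) the lowest. Marco was higher (1.46). Platelet markers had 2 of 8 genes below 0, a median of 0.22 and summed signals of 4631.5 and 5586.1, with none past 2-fold and Ppbp the highest (0.94). Neutrophils make Plaur as well, and among their markers S100a8 (161.4 and 2023.4) and S100a9 (191.2 and 1666.6) were higher. Elane (192.3 and 376.5) was higher by less than 2-fold (0.76), Mpo (438.1 and 426.1) was level, and Camp (18.1 and 44.4) and Cxcr2 (162.2 and 113.1) were below the filter. Of the 4 neutrophil markers past the filter 1 was below 0, with a median of 1.74, and the summed signals of the 6 measured were 1163.3 and 4650.1. Stellate cell markers had a median of -0.15 over 7 genes past the filter, with 6 below 0, and the exception was Dcn, which went from 7724.9 to 14722.2 (0.92). Some of the 6 had probe sets of opposite sign, such as Reln (-0.15 and 0.92) and Des (-0.06 and 1.44). The summed signals of all 8, which include Dcn, were 16046.9 and 21879.5. Erythroid markers had 2 of 4 genes past the filter, Alas2 (0.19) and Slc4a1 (0.07), and summed signals of 1456.5 and 1599.8. The part of these cell types in the members' differences was not tested.

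A wider list of 24 coagulation genes outside the members had 18 past the filter, 9 of them below 0, with a median of 0.03. At least 2-fold higher were 4 (22.2%, against 10.4% of all genes), namely Tgm2, S100a10, Anxa2 and F2r, and 0 were at least 2-fold lower. The list was chosen with earlier results of these data known, so this share is no test against the background. Tgm2, the tissue transglutaminase, an enzyme related to the factor XIII A subunit, had signals of 1974.0 and 41480.6, a ratio of 21.01 (4.34), and its probe sets spanned 2.58 to 4.85. S100a10 and Anxa2 encode the subunits of a cell surface complex that binds plasminogen and its tissue activator. S100a10 went from 1968.8 to 18037.1, a ratio of 9.16 (3.15), with its probe sets between 1.84 and 3.15. Anxa2 went from 1358.0 to 5321.8 (1.92), but another of its probe sets was at -1.08. F2r, the main thrombin receptor, went from 1506.9 to 3921.3 (1.34), and its probe sets gave 1.33 and 1.34. Of the platelet glycoprotein genes on this list, Gp1bb (0.18), Gp5 (-0.05) and Gp9 (-0.48) differed by less than 2-fold.

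Several members are neighbours in the genome, and the adjacent pairs that could be measured went the same way. In the RefSeq gene order 7 pairs of members are adjacent coding genes, and in 5 of these both were past the filter. All 5 pairs had the same sign, namely Fgg and Fga, Fga and Fgb, F7 and F10, F10 and Proz, and F11 and Klkb1. Over 8239 adjacent pairs of coding genes past the filter, 51.6% had the same sign. The 5 pairs come from 3 clusters of related genes and are not independent. In another cluster, Hrg (-0.15) and Kng1 (0.12) stood on opposite sides of 0, and the gene between them, Kng2, was not measured.

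The genes next to these clusters differed from them in part, and they were looked up after the members' values were seen. On chromosome 3 the fibrinogen genes lie between Lrat, a retinol-esterifying enzyme of stellate cells, which had signals of 320.1 and 45.5 (-1.74), and Plrg1, a splicing factor gene, with 747.1 and 2363.7 (1.57). The other probe set of Lrat gave a smaller difference, -0.17. On chromosome 8, F7, F10 and Proz (-0.62, -0.95 and -1.13) lie between Mcf2l, with signals of 305.2 and 213.6 (-0.40), and Pcid2, with 477.4 and 1209.6 (1.22). Elsewhere on chromosome 8, F11 and Klkb1 lie between Mtnr1a, which was below the filter, and Cyp4v3, with signals of 4769.1 and 4034.9 (-0.24). The signs of the members therefore did not carry over to Lrat or to Pcid2, while Plrg1, Mcf2l and Cyp4v3 had the sign of the members beside them.

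**Figure D4:**
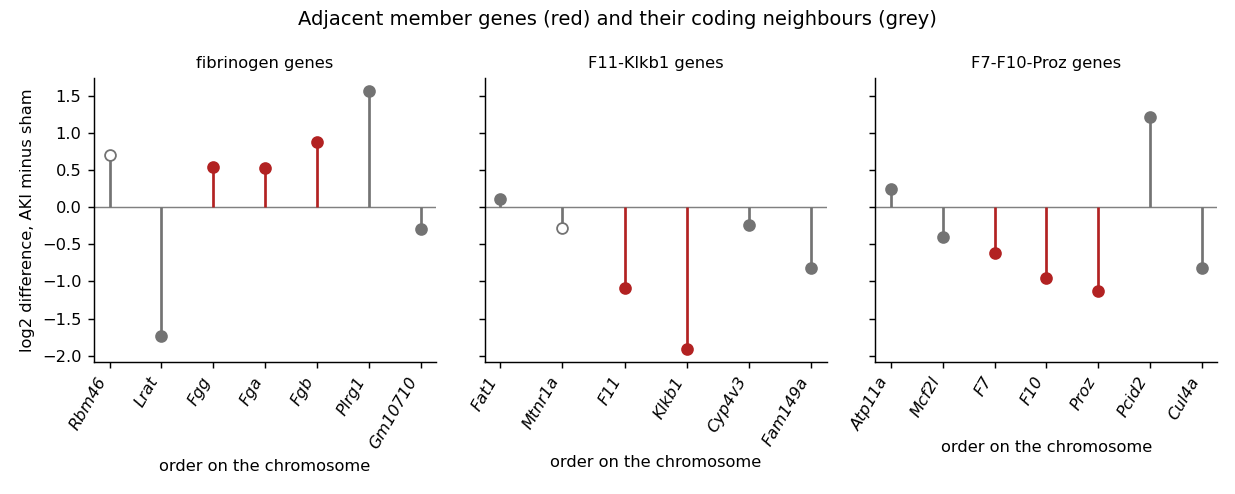
Differences (log2, AKI minus sham) of adjacent member genes (red) and of the coding genes beside them (grey) in their order on the chromosome, with open circles below the level filter. The 3 fibrinogen genes are above 0 between Lrat at -1.74 and Plrg1 at 1.57, while F11 with Klkb1 and F7 with F10 and Proz are below 0.

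The direction of most members was the same under each processing alternative, though several alternatives could not turn it. Over 12 alternatives in scaling, filter, pseudocount and choice of probe sets, 24 of the 29 members had the same sign throughout, and F9, F12, Kng1, Hrg and Tfpi did not. A filter leaves the difference of a gene as it is, and a pseudocount cannot turn the sign of a probe set. Of the 33 matched members, 24 had 1 probe set, which leaves scaling as the main check of direction. There, centring on the hybridization controls brought F2 to -0.04 and Hgfac to -0.06. The fibrinogen chains remained above 0, with Fga between 0.33 and 0.83, Fgb between 0.68 and 1.17 and Fgg between 0.35 and 0.85. Klkb1 lay between -2.11 and -1.62 and passed 2-fold in each alternative. Thbd lay between 1.50 and 2.15 and Plaur between 1.42 and 1.99. These 3 were the members whose 2-fold difference held in every alternative that measured them. Each of the 3 was read by 1 probe set, so the mean over probe sets could not move it. Plaur was not measured in the alternative without suffixed probe sets.

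**Figure D5:**
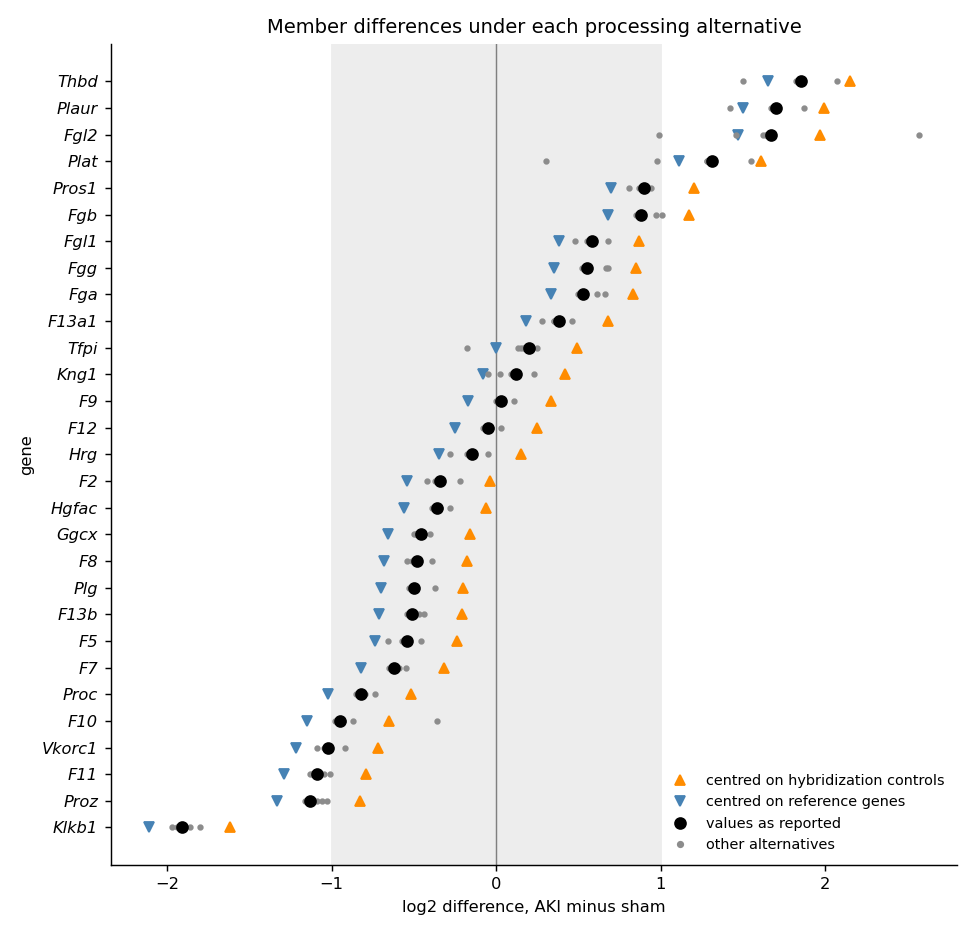
Differences (log2, AKI minus sham) of the 29 members past the level filter as reported (black) and under 12 alternatives, of which hybridization controls (orange) and reference genes (blue) as the centre are marked. The grey band is less than 2-fold, and Klkb1, Plaur and Thbd have all their symbols outside it.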

How the data were processed

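The deposited table holds linear signal intensity values, 1 per probe set and array. The software behind these values was not given in the sources used here. Once 2% of probe sets was trimmed at each end, the mean signal was 500.0 on both arrays, so the arrays had been scaled to a common target. This removes any true difference in total mRNA. Per the labels, 8 ug of total RNA from each pool of 3 livers was labelled with biotin. The number of arrays, 2, limits the precision, and no test between groups could be made.

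Of 45101 probe sets, 64 are controls, 34945 have 1 gene symbol in the platform annotation, 932 have several and 9160 have none. Through Entrez numbers 34741 matched a RefSeq table of assembly GRCm38.p6, which altered 0 symbols. The same source gave gene order and promoter sequences. A pseudocount of 71.8, the 25th percentile of the table, was added before log2. The members and lists were chosen with earlier results of these data known. Every member may be named, with up to 4 genes of each other list by absolute difference. Exceptions are stated.

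The alternatives were median, quantile and lowess (fraction 0.3) normalization, centring on hybridization controls or reference genes, and no level filter or one at the 75th percentile. Others were the mean of probe sets, no probe sets with suffix _s_at, _x_at or _a_at, and a pseudocount of 1 or of 228.7. A level filter on both arrays was added after the data were seen. The computation was checked on simulated data. Python 3.11.15, numpy 2.4.6, pandas 2.3.3, statsmodels 0.14.6 and matplotlib 3.10.9 were used.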

Additional observations from a re-analysis of the deposited data

How the results depend on the processing

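The counts of members at least 2-fold lower and higher, 4 and 4, stayed within 1.5 times under most alternatives. With centring on the hybridization controls, which moved the median of all genes to 0.28, 1 member was at least 2-fold lower, and the median of the 29 members was 0.15 in place of -0.15. Lowering the differences of weak genes with a pseudocount at the table median left 2 members at least 2-fold higher. For members made mainly by other cells, the median of 1.31 was 0.38 both with no level filter, where 4 more weak genes entered, and with the mean of probe sets. The median of hepatocyte-made members had the same sign throughout, but it moved from -0.35 to -0.05 with centring on the hybridization controls. Over all genes, 1634 were at least 2-fold lower and 1370 higher, against 1066 and 2211 with the hybridization controls, 1063 and 841 with the larger pseudocount, and 925 and 812 with the filter on both arrays. No paired analysis was possible because each group has 1 array, and no array could be left out. Signals below the array median limit what can be said of F3, Vwf, Procr and Plau, and signals near or below it limit what can be said of Tfpi.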
